A study of Nothobranchius furzeri with 6 samples.

Results

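The brain small RNA of the turquoise killifish Nothobranchius furzeri, an annual fish with a very short life, was counted over 324 rows, and 89 of these rows have names that begin with pred_. They are called predicted rows here, against 235 named rows that carry the name of a known miRNA family. A name alone does not establish a row as a killifish miRNA, and the named class was not checked for this. Every row with the pred_ prefix was taken, and no measured value was used to choose these rows. The 6 libraries form 1 group of male fish of the wild-derived strain MZM-04/10p at 39 weeks of age, with no treatment or genetic change given in the labels. The strain, sex, age and tissue are thus shared by all libraries, and the data hold levels and their spread but no contrast. Nothing in the labels states that each library came from a separate animal. Every p-value below therefore covers these 6 samples only, and the spread between them may be technical.

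A microRNA is cut from a hairpin-shaped precursor by the enzymes Drosha and Dicer, and the short product guides Argonaute proteins to messenger RNAs. Programs that predict new miRNAs search a genome for hairpins whose arms match sequenced small RNAs. Such candidates can be true miRNAs of one lineage, and they can also be fragments of other RNAs that fold in a similar way. Lineage-restricted miRNAs are known to be lower in abundance, as a class, than deeply conserved ones. How the predicted rows of this table were found is not given in the sources used here. Their names carry no sequence, hairpin arm or position, so no seed can be shown and no row can be assigned to a locus.

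Total counts per library ranged from 11924483 to 16597229. Levels are given as CPM, which are counts relative to the total of their library after scaling with edgeR's TMM factors. The detection floor was set at 3 counts, worth 0.173 to 0.256 CPM, and floors and intervals cover counting error only. Of the families that define brain, neuronal mir-128 at 65311 CPM and mir-9 at 52186 CPM were high in these libraries (means, n = 6). The other neuronal family, mir-124, stood well below them, at 4069 CPM. Choroid plexus and retina mir-204 (8136 CPM) and vessel wall mir-143 (4743 CPM) stood above mir-124, and vessel wall mir-126 (3816 CPM) just below it. Lower, though not absent, were muscle mir-133 at 1076 ± 189 CPM, endocrine mir-375 at 598.4 ± 677 CPM and epithelial mir-205 at 197.4 ± 150 CPM. Digestive mir-192 stood at 89.5 ± 92.9 CPM and liver-specific mir-122 at 9.98 ± 0.827 CPM (SD, n = 6). Adaptor ligation in the library kit depends on sequence, so a ratio between rows mixes abundance with this bias.

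Of the 89 predicted rows 77 had a count in some library, and 39 (43.8%) reached the floor of 3 counts in every library, beside 183 of the 235 named rows (77.9%). At least 10 counts in every library were reached by 28 predicted rows (31.5%) and 163 named rows (69.4%). A mean of at least 10 counts was reached by 38 predicted rows, and these are the ones that entered the tests below. A further 39 had some counts but a lower mean, and 12 had 0 counts in all 6 libraries, which allows up to 0.256 CPM for each in the shallowest library. Rows at 0 in every library made up 13.5% of the predicted class and 11.1% of the named class. The classes stood further apart for intermittent rows, which had a count in some library and 0 in another: 24 predicted rows (27.0%) and 17 named rows (7.23%). These shares are descriptions of the table, with no test. In single libraries, 36 or 37 predicted rows had at least 10 counts, except in library 4, in which 32 did. Library 4 had the lowest total, 11924483, and library 1, with 37 such rows, had a total of 11970136. The part of depth in the lower number of library 4 was not tested.

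Close to the limit for testing, pred_368 and pred_269 had means of 0.793 and 0.898 CPM and were just inside, while pred_373 and pred_491 had means of 0.680 and 0.596 CPM and were just outside. Below the limit, and beside the 12 rows at 0, 35 rows had some counts but never reached 10 in any library. All predicted rows under the limit together made up 0.198% ± 0.0210 of predicted counts (SD, n = 6).

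Predicted rows as a whole took 0.338% ± 0.0463 of all counts (SD, n = 6). By library the share was 0.385%, 0.315%, 0.321%, 0.297%, 0.408% and 0.305% in libraries 1 to 6. Libraries 5 and 1 were thus the highest. The exact (Clopper-Pearson) 95% interval was 0.404% to 0.412% in library 5 and 0.312% to 0.318% in library 2, so counting error was far smaller than the difference between these libraries.

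**Figure D1:**
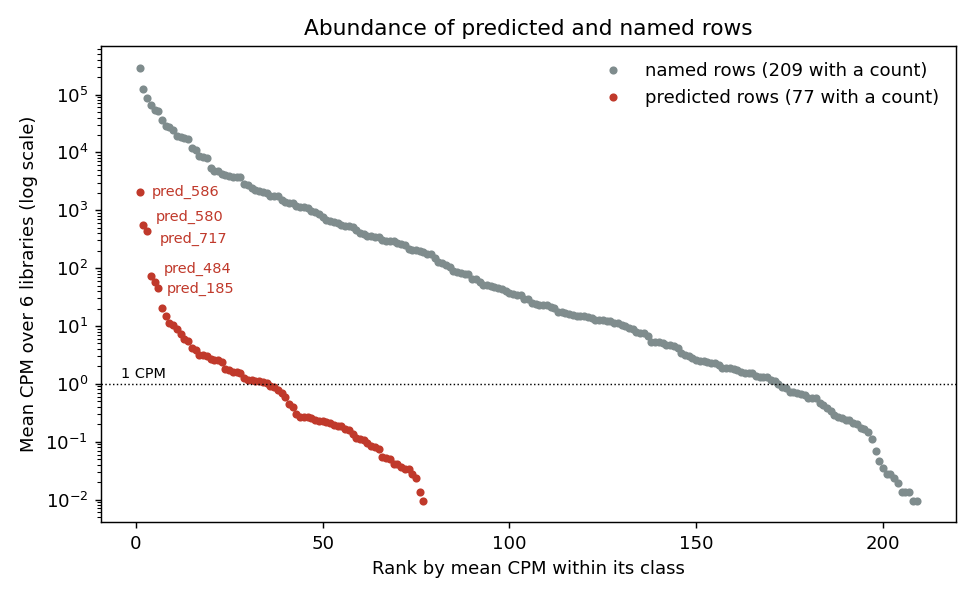
Mean CPM over 6 libraries (log scale) against rank within each class, for the 77 predicted rows (red) and 209 named rows (grey) that had at least 1 count. The predicted rows start lower, with pred_586 at 2074 CPM, and fall below 1 CPM after 35 rows, whereas 171 named rows have a mean of at least 1 CPM.

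The counts of the predicted class sat in a handful of rows. One row, pred_586, held 61.4% ± 2.28 of predicted counts, pred_580 held 16.6% ± 0.965 and pred_717 held 12.6% ± 1.69 (SD, n = 6 for each). Together these 3 rows held 90.7% ± 1.13, and the 5 most abundant held 94.5% ± 0.861. Among named rows the 3 most abundant held 50.6% ± 1.16 of named counts and the 5 most abundant held 62.4% ± 0.772. The classes differ in size, 89 and 235 rows, so the same number of rows is a larger fraction of the predicted class. The 15 most abundant rows held 98.5% ± 0.183 of predicted counts and 87.6% ± 0.679 of named counts. As an effective number of equally abundant rows (inverse Simpson index), the predicted class came to 2.37 ± 0.134 and the named class to 8.01 ± 0.433. Without pred_586, the next 5 rows held 89.3% of the remaining predicted counts. Across the class, 10 predicted rows had a mean of at least 10 CPM and 35 a mean of at least 1 CPM.

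The row pred_586 stood at 1877 CPM in its lowest library, 1949 CPM at the median and 2544 CPM in its highest, library 5. Its mean of 2074 ± 261 CPM (SD, n = 6) placed it 34th of all 324 rows, between mir-3596 at 2163 ± 361 CPM and mir-25 at 2029 ± 368 CPM. The latter is a paralogue of the growth-promoting miR-17-92 cluster. Those neighbours lie within 1 SD of it, so its rank is not exact.

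The row pred_580 ranged from 493.0 CPM, with a median of 525.6 CPM, to 759.6 CPM in library 5, and its mean was 564.7 ± 99.6 CPM. At rank 56 it stood beside mir-7, a family of endocrine cells and neurons, at 562.6 ± 248 CPM. For pred_717 the lowest value was 321.8 CPM in library 4, the median 413.3 CPM and the highest 546.5 CPM in library 1. Its mean of 430.2 ± 100 CPM put it at rank 62, near the epithelial family name mir-8 at 451.1 ± 204 CPM. These 3 are the only predicted rows with a mean above 100 CPM.

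After pred_717 the levels dropped steeply. The next row, pred_484, had a mean of 73.1 ± 66.6 CPM and rank 93, pred_185 had 58.4 ± 37.7 CPM and rank 96, and pred_770 had 46.11 ± 23.2 CPM and rank 103. In each of these rows the SD was a large part of the mean. The rows pred_666 at 20.8 ± 4.66 CPM, pred_303 at 14.8 ± 10.1 CPM, pred_552 at 11.1 ± 1.53 CPM and pred_238 at 10.2 CPM (8.53 to 12.1 over the libraries) completed the first 10. Then came pred_95 at 8.87 ± 2.83, pred_219 at 7.29 ± 1.58, pred_404 at 5.85 ± 0.925, pred_530 at 5.57 ± 1.20 and pred_319 at 4.13 ± 0.585 CPM. The remaining 23 tested predicted rows had means of 0.793 to 3.86 CPM, and no library had more than 85 counts for any of them.

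**Figure D2:**
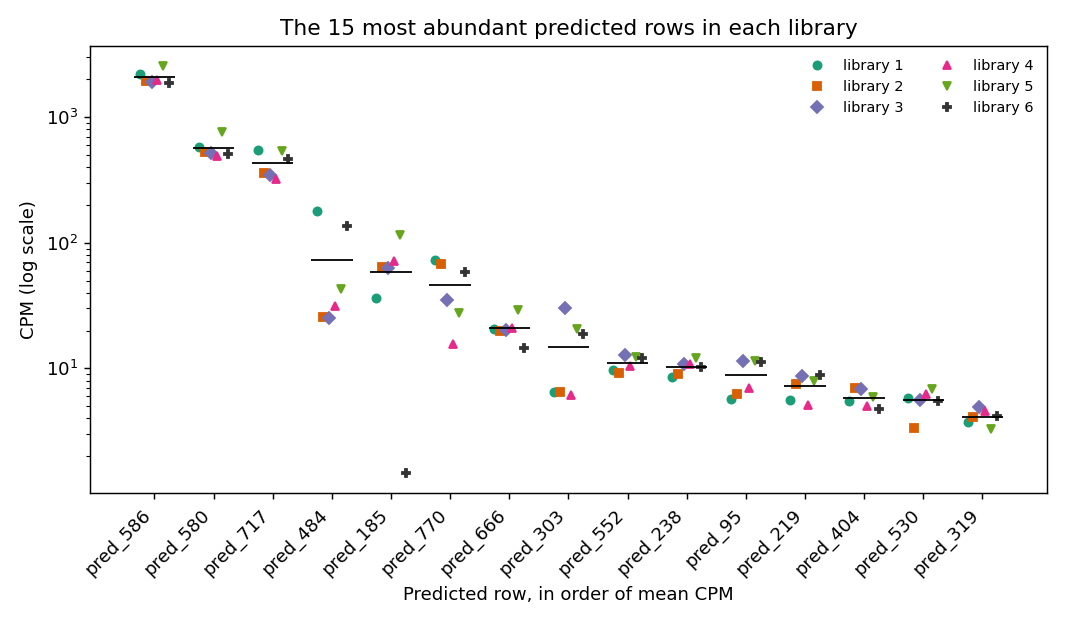
CPM (log scale) of the 15 most abundant predicted rows in each of the 6 libraries, with 1 marker per library and a black line at the mean. The libraries lie close together for pred_586, pred_552 and pred_238, while pred_185 in library 6 lies at 1.47 CPM, far below its other libraries.

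Within each library, pred_586 exceeded pred_580 by a log2 ratio of 1.88 ± 0.08, pred_580 exceeded pred_717 by 0.41 ± 0.24 and pred_717 exceeded pred_484 by 2.97 ± 1.01 (mean ± SD), and the order held in 6 of 6 libraries for each step. By an exact two-sided permutation test that flips the sign of each library's ratio, these steps had p = 0.031, which is the lowest 6 libraries can give. Benjamini-Hochberg adjustment over the 9 steps between the first 10 rows raised it to 0.0938. The rows were ranked by their means over these same libraries, so the test is not independent of the ranking. With only 3 of 9 steps at the lowest p, none could pass, so the adjusted test cannot decide on these steps. None of the 9 steps passed after adjustment, and 3 had an unadjusted p under 0.05. Further down the order was unstable. The row pred_484 exceeded pred_185 in only 2 of 6 libraries although its mean was higher, and pred_185 exceeded pred_770 in 3 of 6.

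A shared number in the names did not go with a shared level. Of the 89 predicted rows, 17 have a number that a mir- row also has, and most of these pairs differed widely. The row pred_586 stood at 2074 CPM and mir-586 had no count at all, pred_580 stood at 564.7 CPM and mir-580 at 1.70 CPM, and pred_9 had no count while mir-9, the family of neural progenitors and neurons, stood at 52186 CPM. An exception was pred_196 at 2.73 CPM beside Hox-linked mir-196 at 2.84 CPM, and their counts differed in each library. No 2 of the 38 tested predicted rows had the same counts.

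The spread between libraries was small for most predicted rows. The median SD of log2(CPM + 1) was 0.25 over the 38 tested predicted rows and 0.27 over all 214 tested rows. Adding 1 to CPM understates this SD where CPM is itself close to 1, and the median level was 2.88 CPM for tested predicted rows against 78.7 CPM for tested named rows. The biological coefficient of variation, edgeR's estimate of the spread beyond counting error, does not carry that compression. Its median was 0.277 for predicted rows and 0.273 for named rows, and it lay above the trend for rows of like abundance in 9 of 38 predicted and 29 of 176 named rows. These values are shrunk toward 1 common trend, and most strongly for rows with few counts, so the medians do not show that the classes spread alike. The steadiest predicted rows by the SD of log2(CPM + 1) were pred_814 (SD 0.10), pred_173 (0.12), pred_319 (0.17), pred_238 (0.17) and pred_586 (0.17). For pred_814 the levels ran from 2.21 to 2.85 CPM, and the mean of pred_173 was 1.61 ± 0.223 CPM.

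For most low rows, spread beyond counting error was not detected. By a Poisson index of dispersion with Benjamini-Hochberg adjustment, 19 of 38 predicted rows varied beyond counting at an adjusted p under 0.05, where 82.7% of all 214 tested rows did. Split by abundance, this was 10 of the 11 predicted rows with a mean of at least 100 counts and 9 of the 27 with fewer. The same split was not made for named rows, whose median level was higher (78.7 against 2.88 CPM). Neither number is thus set against named rows of like depth. The part of depth in the difference between the sets was not tested. For the other 18 of those 27 rows, variation between libraries beyond counting was not detected at their depth.

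**Figure D3:**
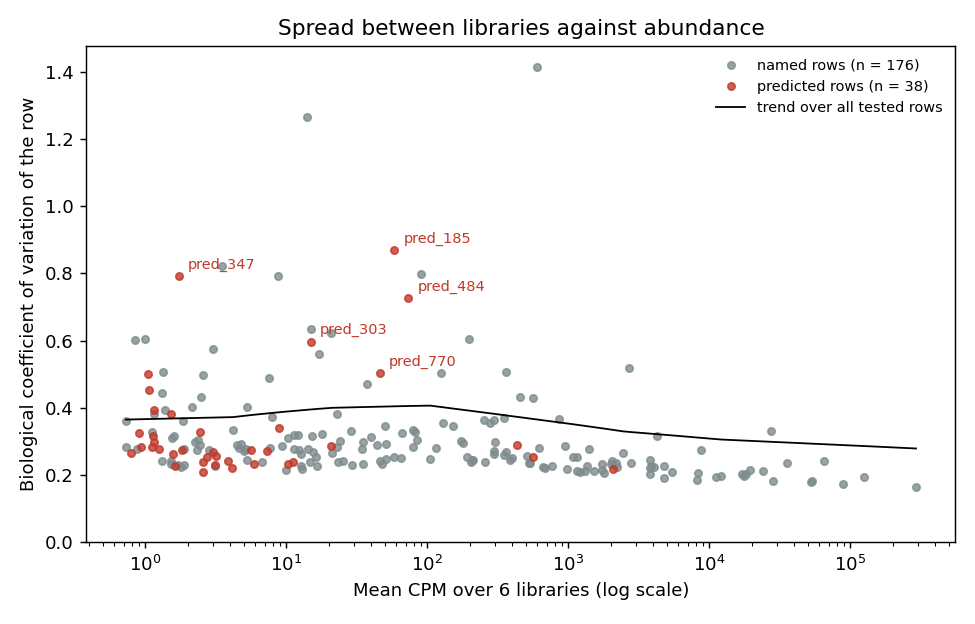
Biological coefficient of variation of each tested row, shrunk toward the trend by edgeR, against its mean CPM (log scale), with predicted rows in red, named rows in grey and the trend over all 214 tested rows as a line. Most predicted rows lie below the trend, and pred_185, pred_484 and pred_347 lie at 0.869, 0.726 and 0.792, well above it.

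Against the spread of rows of like abundance, 3 predicted rows varied more than the trend by edgeR's goodness-of-fit test of an intercept-only negative binomial model. They were pred_185, pred_347 and pred_484, or 3 of 38 tested, where the same test called 3.74% of all 214 tested rows (8 rows). At an unadjusted p under 0.05 in this test there were 4 of 38 predicted rows and 18 of all 214 tested rows. With so few calls, the predicted share is not read as different from that of the table. Each of the 3 rows had its own pattern of libraries.

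The row pred_185 was nearly missing from 1 library. It stood at 36.1, 63.6, 62.8, 72.0 and 114.5 CPM in libraries 1 to 5 and at 1.47 CPM in library 6, which is 18 counts with an exact 95% interval of 0.871 to 2.32 CPM. Its other libraries had 444 to 1403 counts each. The next-lowest library was 24.5-fold above library 6, and the whole range was 77.9-fold. No other tested row had a lowest library so far below the rest: the largest such ratio was 3.61 among the 176 named rows, for mir-263, and 2.38 among the other 37 predicted rows, for pred_420. The adjusted p in edgeR's test was 5.6e-05, and without library 6 it was 0.9998, so the call rests on that library. Library 6 was the lowest library for 8 of 38 predicted and 33 of 176 named rows, and its total count of 12776508 lay within the range of the others. Of 21 families that mark cell types or tissues, 5 were lowest in library 6. They were oligodendrocyte mir-219 (1068 CPM there, 1079 to 1282 CPM elsewhere), muscle mir-133 (769.3 against 951.1 to 1258 CPM), epithelial mir-205 (65.3 against 108.5 to 467.3 CPM), digestive mir-192 (16.9 against 22.7 to 267.1 CPM) and endocrine mir-375 (5.23 against 7.56 to 1574 CPM). Other families of the same cells did not share this order. Oligodendrocyte mir-338 (19943 CPM) and endocrine mir-7 (921.0 CPM) were highest in library 6. Muscle mir-1 stood at 25.9 CPM there, within its range of 10.9 to 31.4 CPM. The parts of these cell types and of library depth in the level of pred_185 were not tested.

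The row pred_484 was high in a pair of libraries. Library 1 had 178.0 CPM and library 6 had 135.9 CPM, with exact 95% intervals of 171 to 186 and 129 to 143 CPM. Libraries 2 to 5 had 25.5, 25.4, 31.2 and 42.8 CPM. The lower of the high pair was 3.17-fold above the next library, and no other tested row had so wide a gap below its 2 highest libraries (at most 2.50-fold, for the muscle family mir-499). In edgeR's test the adjusted p was 0.0057, and it was 0.0943 without library 1 and 0.0766 without library 2. Libraries 1 and 6 were also the 2 highest for 7 of 176 named rows. Of the 21 marker families, 3 were among these 7: oligodendrocyte mir-338, vessel wall mir-143 and red blood cell mir-451. From the lowest to the highest library, pred_484 ranged 7.01-fold, mir-338 ranged 1.35-fold (14772 to 19943 CPM), mir-143 ranged 1.47-fold (3790 to 5568 CPM) and mir-451 ranged 2.90-fold (159.2 to 461.6 CPM). The other red blood cell family, mir-144, was highest in library 2, at 191.5 CPM. Oligodendrocyte mir-219 was lowest in library 6, at 1068 CPM, and vessel wall mir-126 was highest in libraries 6 and 2 (4487 and 4425 CPM). The part of these cell types in the level of pred_484 was not tested.

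The row pred_347 was low in abundance, with 15, 34, 41, 2, 4 and 48 counts in libraries 1 to 6. This gave 1.22, 2.31, 2.36, 0.171, 0.326 and 3.92 CPM. Counting error (exact 95% interval) left library 4 between 0.0207 and 0.617 CPM and library 6 between 2.89 and 5.20 CPM, so the lowest and highest libraries were separated beyond counting error. The adjusted p in edgeR's test was 0.0033, and 0.201 without library 4. With only 2 counts in the lowest library, no fold range is given.

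A further pair of rows had large spread without passing the test. The row pred_303 reached 30.5, 20.5 and 18.9 CPM in libraries 3, 5 and 6. In libraries 1, 2 and 4 it had 6.50, 6.45 and 6.15 CPM. The libraries therefore fell into a high and a low set of 3 with no value between 6.50 and 18.9 CPM. Its adjusted p in edgeR's test was 0.142, and 8.1e-04 when the trend was fitted without the called rows. The row pred_770 had 72.3, 67.9, 35.1, 15.6, 27.7 and 58.1 CPM in libraries 1 to 6, a graded spread with no such gap. Its adjusted p was 0.755 in edgeR's test, and 0.0275 with the trend fitted without the called rows. That refit, given for both rows, leaves out rows picked as variable from these same data, so it tends to lower p-values. It called 22 of all 214 tested rows, where the main fit called 8.

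**Figure D4:**
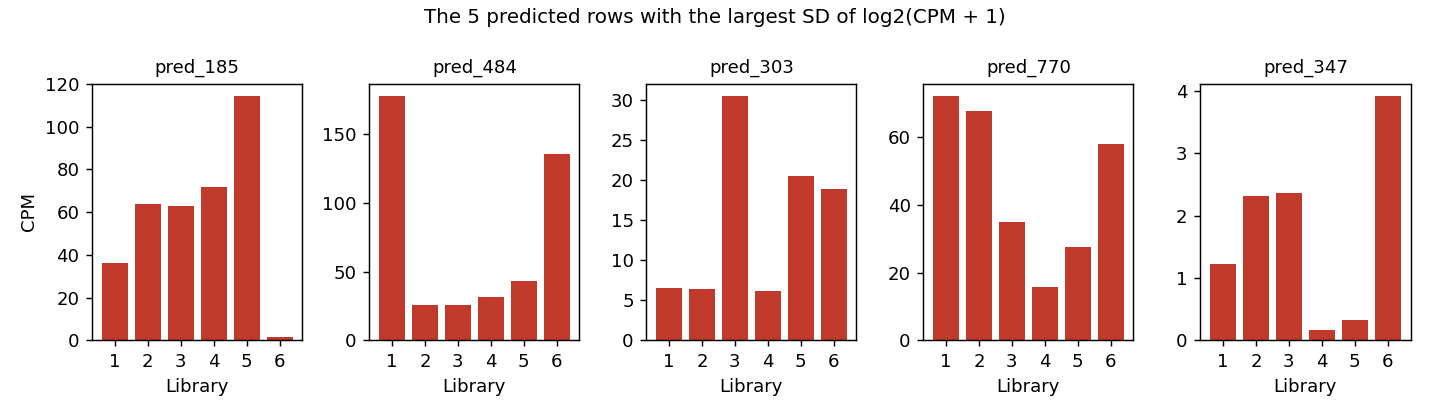
CPM in each of the 6 libraries for the 5 predicted rows with the largest SD of log2(CPM + 1), with a separate linear axis from 0 for each row. The low library differs between rows: library 6 for pred_185, and library 4 for pred_770 and pred_347.

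The 5 variable rows did not share 1 order of libraries. Libraries 4 and 5 were the lowest for both pred_347 and pred_770, and for 14 of 176 named rows. The latter included 5 of the 21 marker families, neuronal mir-124, red blood cell mir-451, the vessel wall families mir-126 and mir-143, and muscle mir-1. Other families of the same cells had another order. Neuronal mir-128 was highest in library 4, at 92541 CPM. Muscle mir-133 was lowest in libraries 6 and 4 (769.3 and 951.1 CPM), and red blood cell mir-144 in libraries 5 and 3 (32.2 and 97.1 CPM). The part of these cell types in the levels of pred_347 and pred_770 was not tested. Libraries 3, 5 and 6 were the highest for pred_303, as for pred_95, pred_552, pred_219 and pred_39, and for 11 of 176 named rows. Of the 21 marker families, the white blood cell and microglial family mir-146 had the latter order and spanned 185.8 to 418.7 CPM, and mir-142, of the same cells, did not. The part of those cells in the level of pred_303 was not tested.

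Covariation with named families was examined for every pair of a tested predicted row and a tested named row. The libraries of pred_185, pred_303 and pred_484 fell into separate clusters, as did those of 7 named rows, and no correlation is given for them. This left 35 predicted and 169 named rows, or 5915 pairs. By an exact two-sided permutation test of Pearson's r over all 720 pairings of libraries, 0 pairs (0.0%) passed after Benjamini-Hochberg adjustment over all pairs, and the smallest adjusted p was 0.632. An unadjusted exact permutation p under 0.05 was reached by 311 pairs, which is 5.26% of them, and by 204 pairs (3.45%) with Spearman's rho. With 720 pairings the p cannot go below 0.00139, so a lone pair cannot pass over 5915 pairs, however tight it is.

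The distribution of r was also close to that between named rows. An absolute r of at least 0.9 was found in 1.59% of pairs of a predicted with a named row, in 1.68% of 595 pairs of predicted rows and in 2.30% of 14196 pairs of named rows. The median r was 0.00, 0.06 and -0.01 in these 3 kinds of pair. These are descriptions over pairs that share rows and libraries.

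**Figure D5:**
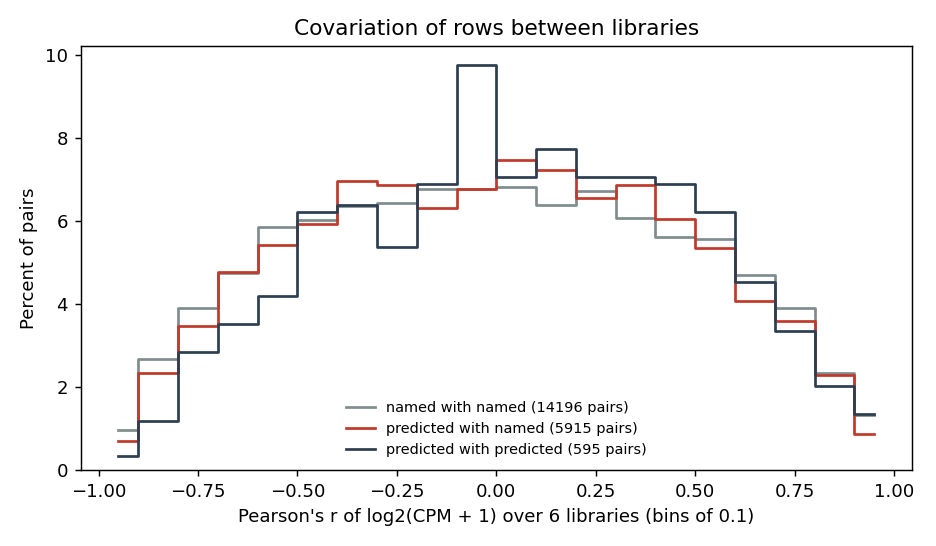
Percent of pairs in each bin of Pearson's r of log2(CPM + 1) over 6 libraries, for pairs of a predicted with a named row (red, 5915 pairs), of predicted rows (dark, 595 pairs) and of named rows (grey, 14196 pairs). All 3 distributions are broad and centred near 0, with 1.59%, 1.68% and 2.30% of pairs at an absolute r of at least 0.9.

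Some single pairs were tight all the same, and they are given as descriptions of 6 libraries. The closest named row to pred_770 was mir-716, which stood at 587.4, 492.4, 320.3, 119.3, 193.9 and 459.9 CPM in libraries 1 to 6 and so had the same order of libraries. Pearson's r was 0.99 and Spearman's rho was 1, with exact permutation p-values of 0.00139 and 0.00278 that rose to 0.632 and 0.939 on adjustment. Leaving out the 2 libraries farthest from the median left r at 0.98. For pred_347 the closest were mir-24, of the mir-23, mir-27 and mir-24 cluster, with r of 0.97, and the Hox-linked family mir-10, with r of 0.95, and both had a rho of 0.94. Exact permutation p-values were 0.00278 and 0.00833 for r and 0.0167 for rho, or 0.782, 0.905 and 0.939 on adjustment. Dropping the 2 farthest libraries left r at 0.98 for mir-24 and 0.82 for mir-10. The change of pred_347 was much larger than that of mir-24, which ranged only from 153.9 to 227.0 CPM.

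For the 3 most abundant predicted rows the closest named rows had a lower r. The row nearest to pred_586 was mir-2985-2, with r of 0.90 and rho of 0.94, and r stayed at 0.90 when the 2 farthest libraries were dropped. Exact permutation p-values were 0.00278 and 0.0167, and 0.782 and 0.939 on adjustment. The nearest to pred_580 was mir-92, of the growth-promoting miR-17-92 cluster, with r of 0.91 and rho of 0.37. Here the exact permutation p-values were 0.0819 and 0.497, and 0.905 and 0.993 on adjustment, and the relation rests on few libraries, since r turned to -0.25 when the 2 farthest were dropped. The nearest to pred_717 was mir-345, with r of 0.94, rho of 0.89 and r of 0.89 after that step. Its exact permutation p-values were 0.00556 and 0.0333, and 0.843 and 0.943 on adjustment.

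The 2 most abundant predicted rows, pred_586 and pred_580, were both highest in library 5 and second highest in library 1. Between them r was 0.95 and rho 0.66, with exact permutation p-values of 0.0236 and 0.175, or 0.826 and 0.967 adjusted over 595 pairs. When the 2 libraries farthest from the median were dropped r was -0.31, so the relation rests on those libraries. The tightest pair of predicted rows was pred_552 and pred_95, with r of 0.97 both with all libraries and with the 2 farthest dropped, and rho of 0.94. Exact permutation p-values were 0.00972 and 0.0167, and 0.826 and 0.964 on adjustment.

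The predicted rows were also set beside the families that mark cell types. For the 12 unclustered rows among the 15 most abundant predicted rows, and pred_347, there were 247 pairs with 19 unclustered marker families. Of these pairs 7 (2.83%) had an unadjusted exact permutation p under 0.05, and 0 passed after adjustment over all 5915 pairs (smallest adjusted p 0.843). The largest absolute r among them was that of pred_238 with the white blood cell and microglial family mir-142, at -0.98 (exact permutation p = 0.00417, adjusted p = 0.843). With mir-146, of the same cells, pred_238 had an r of the other sign, 0.69 (exact permutation p = 0.132, adjusted p = 0.914). With neuronal mir-128, pred_586 had r = -0.01 and pred_717 had r = -0.26 (exact permutation p = 0.960 and 0.656, adjusted p = 1 and 0.972).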

How the data were processed

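The authors deposited raw counts, as whole numbers, for 324 rows in 1 column per library. Libraries are numbered in accession order, which only names them. Library preparation used the TruSeq small RNA kit of Illumina, per the labels' protocols. The tools BWA 0.7.12-r1039, Trimmomatic 0.36, SAMtools 1.3.1-9 and bcl2fastq 1.8.4 appear in the submitters' processing notes. Their roles, the build and the treatment of reads with several matches are not stated in any source used here, so near-identical rows may share reads.

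Counts were scaled by TMM in edgeR 4.0.16 (R 4.3.3). The 214 rows with a mean of at least 10 counts were fitted together, with an intercept-only negative binomial model at its trended dispersion, and the goodness-of-fit p was adjusted over all of them (threshold 0.05). A single group leaves no coefficient for a quasi-likelihood test. DESeq2 1.42.0 served as an alternative. Correlations used log2(CPM + 1) in NumPy 2.4.6. A row was held to be clustered where the largest gap between sorted log2 values was at least 1 and over 0.5 of its range. The goodness-of-fit test was tried on simulated data of 214 rows in 20 runs. Counts were drawn at the fitted trend, with spread added to some rows. The trend was refitted with those rows included, so the rates hold for that setting. The test called 0% of rows with no added spread, 9.75% with an added log2 SD of 1 and 64.75% with an added log2 SD of 2. A row that was not called may thus still vary more than the trend. Rows named are the 15 most abundant predicted rows, those that passed, the 5 with the largest and the 5 with the smallest SD of log2(CPM + 1), the 2 on either side of the limit, and the named rows with the highest r. Pairs of predicted rows were added after the values were seen, as were the other rows named beside a pattern. The rule for the members uses names alone, but this rule, the lists and the tests were set with earlier results of these data known.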

Additional observations from a re-analysis of the deposited data

Results flagged for a closer look

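For 25 levels and shares, Dixon's criterion for 6 values was applied to the highest and the lowest library. It was met by 2 of them, and chance alone meets it in about 1 of 20, which makes 1.25 for 25 values. The row pred_580 reached 759.6 CPM in library 5 (exact 95% interval 744 to 775 CPM), above a range of 493.0 to 576.6 CPM for the remaining libraries. The row pred_530 had 3.33 CPM in library 2, below a range of 5.55 to 6.86 CPM. The very low value of pred_185 in library 6 did not meet the criterion on the linear CPM scale, where its other libraries are themselves widely spread.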

How the results depend on the processing

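Of 89 predicted rows, 53 rather than 28 were detected when 1 count in every library sufficed. Their share of all counts was 0.479% rather than 0.338% without mir-181 in the total. Without pred_586, the 5 most abundant rows held 89.3% rather than 94.5%. The number of predicted rows that varied was 3 with TMM, DESeq2 size factors or library totals, 4 with a lower or no filter on counts, 5 with the trend fitted without the called rows, 19 by the Poisson index and 1 (pred_185) as a DESeq2 dispersion outlier. Over all tested rows, TMM and DESeq2 size factors each gave 8 of 214, library totals 10 of 214, and the filters 10 of 262 and 10 of 286. The refitted trend gave 22 of 214, the Poisson index 177 of 214 and DESeq2 outliers 3 of 214. With 1 library left out, 2 or 3 predicted rows varied, of 6 to 9 rows called in all. The rows pred_484, pred_347 and pred_185 were each lost in at least 1 such fit, as given above. No rank step and no pair passed under any alternative run (204 to 317 pairs had an unadjusted exact permutation p under 0.05). With 5 libraries the smallest sign-flip p is above the threshold, so no rank step could pass in those fits. The smallest exact permutation p for a pair is also higher with 5 libraries. The 240 to 279 pairs with an unadjusted p under 0.05 were then too few for any to pass over 5915 pairs. Of 44 recomputed levels, none moved by 1 SD. In rows under 100 counts, counting error is larger relative to the level, and the part of depth in their results was not tested. No paired analysis was possible because all libraries belong to 1 group.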

Other observations

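A low-count row stood out below the limit for testing and was noticed after its values were seen. The row pred_146 had 27 counts in library 2, or 1.83 CPM, and 1, 4, 2, 2 and 3 counts in libraries 1, 3, 4, 5 and 6. With rows of a mean of at least 1 count admitted, it was the fourth predicted row to pass edgeR's goodness-of-fit test (adjusted p = 0.0046). Outside library 2 it had at most 4 counts.

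Libraries differed in how often they held the highest or lowest level of a predicted row. Library 3 was highest for 11 of 38 tested predicted rows and library 5 for 10, while library 4 was lowest for 11. Among 176 tested named rows, library 3 was highest for 28, library 5 for 41, and library 4 was lowest for 24. These counts are descriptions with no test.

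Across the 38 tested predicted rows, log2(CPM + 1) correlated between pairs of libraries with r of 0.90 to 0.98, and across the 176 tested named rows with 0.98 to 0.99. These are correlations across rows, which are not independent replicates.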
